A study of Mus musculus with 7 samples.

Results

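Secreted Wnt proteins, their receptors and their extracellular antagonists were followed in mouse hindlimb tendon after burn and tendon injury. The set held the protein-coding genes of 5 families named by symbol (Wnt, Fzd, Sfrp, Dkk and Rspo followed by a digit) plus Lrp5, Lrp6, Axin2, Lef1, Ctnnb1, Wif1 and Sost. It came to 48 of the 44818 features in the tables, carried by 108 transcripts. By role there were 19 Wnt ligands, 4 R-spondins, 10 Frizzled receptors, 2 co-receptors, 10 antagonists and 3 intracellular or target genes.

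The study asked about TAK1, the kinase encoded by Map3k7, in heterotopic ossification, in which cartilage and bone form where soft tissue should be. All 7 libraries came from hindlimb tendon of mice of C57BL/6 background, with no mutant allele or drug named for any of them. The tenotomy group (n = 2) was the site of a cut Achilles tendon 3 weeks after the cut and a back burn made with a metal block at 60 °C for 18 s over 30% of the body surface. The contralateral group (n = 3) was uncut tendon from the opposite hindlimb of mice injured in this way, also at 3 weeks, so it shared the burn and the body-wide effects of injury but not the cut. The uninjured group (n = 2) was tendon of wild-type mice with neither burn nor tenotomy. Age and sex are not given in the labels used here. Nor do the labels say that the libraries of a group came from separate animals, so p-values measure only the spread between libraries.

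As background, a Wnt protein binds a Frizzled receptor and an Lrp5 or Lrp6 co-receptor at the cell surface, which stops the destruction of β-catenin (Ctnnb1) so that it can act with TCF and LEF factors in the nucleus. Sfrp proteins and Wif1 bind Wnt proteins outside the cell, Dkk1 and sclerostin (Sost) block the co-receptors, and R-spondins keep Frizzled receptors on the surface. In the skeleton the pathway is known for driving bone formation and for restraining the cartilage fate.

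The 4 promoter windows that follow were chosen because they belong to the genes the results turn on: Sfrp2 and Sfrp5, members of 1 family that moved in opposite directions, Wnt16, the ligand that passed the test, and Axin2, the feedback gene of the pathway. Each is the stretch of 250 bases just before the gene start, 5′ to 3′ on the gene's strand, from RefSeq on GRCm38.p6, and capitals mark CpG dinucleotides. Sfrp2 lies at chr3:83766071-83766320 on the plus strand, Sfrp5 at chr19:42202253-42202502 on the minus strand, Wnt16 at chr6:22287977-22288226 on the plus strand and Axin2 at chr11:108920099-108920348 on the plus strand. All 4 windows end at the base before the start of the same gene in GENCODE M21.
Sfrp2: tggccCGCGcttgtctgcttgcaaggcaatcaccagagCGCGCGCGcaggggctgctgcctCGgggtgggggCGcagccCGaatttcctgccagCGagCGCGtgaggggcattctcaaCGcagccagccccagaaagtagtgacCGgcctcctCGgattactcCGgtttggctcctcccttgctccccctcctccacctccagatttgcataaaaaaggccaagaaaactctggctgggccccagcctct
Sfrp5: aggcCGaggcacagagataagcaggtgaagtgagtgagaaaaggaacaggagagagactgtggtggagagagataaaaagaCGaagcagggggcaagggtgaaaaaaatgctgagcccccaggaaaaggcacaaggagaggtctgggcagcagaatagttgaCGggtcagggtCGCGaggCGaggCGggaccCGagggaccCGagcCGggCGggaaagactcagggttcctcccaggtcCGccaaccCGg
Wnt16: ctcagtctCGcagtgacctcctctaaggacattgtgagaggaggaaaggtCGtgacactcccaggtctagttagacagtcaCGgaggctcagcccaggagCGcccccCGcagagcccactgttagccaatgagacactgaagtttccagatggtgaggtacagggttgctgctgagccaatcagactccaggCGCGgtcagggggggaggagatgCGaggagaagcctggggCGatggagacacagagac
Axin2: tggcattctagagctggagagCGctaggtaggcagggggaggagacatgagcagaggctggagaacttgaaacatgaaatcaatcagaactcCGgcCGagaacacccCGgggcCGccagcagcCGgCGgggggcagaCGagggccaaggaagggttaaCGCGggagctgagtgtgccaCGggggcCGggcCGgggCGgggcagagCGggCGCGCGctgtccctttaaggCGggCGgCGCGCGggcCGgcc
The Axin2 window held 24 CpG, the Sfrp2 window 16, the Sfrp5 window 13 and the Wnt16 window 9. A window was found for 32 of the 48 genes (39 windows), with a median of 22 CpG, against a median of 6 over all 32851 RefSeq windows, of which 85.2% had fewer than 22. GC content had a median of 66.8% in the set and 52.4% over all windows. The TCF/LEF letters ATCAAAG, searched on both strands, were in 2 of the 39 windows (Wnt11 and Wnt5b, 5.13%) and in 3.21% of all windows. The AP-1 letters TGANTCA were in 1 of 39 (2.56%, against 6.75%) and the TATA box letters TATAAA in 7 of 39 (17.9%, against 12.4%). None of the 4 printed windows held any of these letters, which says only that they are not in these stretches.

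Library totals ran from 25927171 to 36725106 estimated counts, of which 76.41% to 81.4% fell on 5 features, leaving 4934057 to 8375626 counts for all others. The Wnt set took 3376, 4606 and 3895 counts in contralateral, 7120 and 5961 in tenotomy, and 5318 and 3803 in uninjured libraries. Levels of a gene across libraries are given as CPM, its count scaled to a common library total. Fibroblast and tendon markers were present in every library, among them the tendon gene Tnmd at 5.41 to 9.07 CPM in contralateral, 27.3 and 28.5 in tenotomy and 25.3 and 11.8 in uninjured tissue. Muscle was present too: 20 skeletal muscle markers summed to 25500 to 28200 CPM in contralateral, 2210 and 2230 in tenotomy, and 2830 and 19000 in uninjured libraries. In the muscle markers the library labelled uninjured replicate 1 thus stood beside the tenotomy libraries and uninjured replicate 2 nearer the contralateral ones. That division returns in the Wnt genes called below, and results on uninjured tendon are given with and without each. The summed fibroblast and tendon markers, in which collagen genes weighed most, did not divide so. They stood at 1210 to 1620 CPM in contralateral, 7130 and 7140 in tenotomy, and 6530 and 4540 in uninjured replicates 1 and 2. Single markers of the list differed in this. In uninjured replicates 1 and 2, Lum was at 99.3 and 8.6 CPM and Col3a1 at 1810 and 384. Col1a1 was at 2360 and 2210 CPM there and Dcn at 191 and 177.

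A gene was called detected in a library at 10 or more estimated counts and detected in the series if it passed edgeR's filter on low counts. Between 28 and 33 of the 48 genes reached 10 counts in a library, and 25 did so in all 7. The filter kept 34 genes: 9 of 19 ligands, 3 of 4 R-spondins, 9 of 10 Frizzled receptors, both co-receptors, 8 of 10 antagonists and all 3 intracellular or target genes. Sost, the osteocyte antagonist, and the ligands Wnt3a and Wnt7b had 0 counts in every library, which allows up to 3 counts, or 0.0816 to 0.112 CPM depending on the library, counting error only. The other genes removed never passed 11 counts: Fzd10 reached 11, Dkk4 6, Wnt10a 4, Wnt2, Wnt8b and Wnt9b 3, Rspo4 2, and Wnt1, Wnt3, Wnt7a and Wnt8a 1. With no filter on low counts, edgeR tested the 11 of these 14 genes that had any count and called 0 between tenotomy and contralateral tendon, with 0 at an unadjusted p under 0.05 (smallest Benjamini-Hochberg adjusted p 0.307, Wnt10a). At their depth such differences were not detectable.

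TPM, transcript abundances corrected for length, allow levels to be compared between genes. They put Ctnnb1 highest in contralateral tendon at a mean of 1.40 TPM (1.18 to 1.53), followed by the receptor Fzd4 at 0.708 (0.593 to 0.768) and Lrp6 at 0.412 (0.325 to 0.465). Sfrp2, Fzd7, Sfrp5 and Lrp5 came next at means of 0.228, 0.216, 0.214 and 0.202 TPM, with ranges that overlapped. At the tenotomy site the order was led by Sfrp2 at 2.10 TPM, then Ctnnb1 at 1.61, Sfrp4 at 1.13, Dkk3 at 0.660 and Sfrp1 at 0.582. Dkk3 lay above Sfrp1 in both tenotomy libraries (0.6275 and 0.6934 against 0.5371 and 0.6272 TPM), with ranges that all but touched.

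Between the tenotomy site and the contralateral tendon, the antagonists Sfrp1, Sfrp2, Sfrp4 and Dkk3, the receptors Fzd1, Fzd2, Fzd6 and Fzd8, the ligand Wnt16 and the R-spondin Rspo2 were higher at the cut tendon. The receptors Fzd4 and Fzd9, the antagonist Sfrp5 and the β-catenin target Axin2 were lower there. In edgeR's quasi-likelihood test over all 7 libraries with Benjamini-Hochberg adjustment, 10 of the 34 genes rose (29.4%) and 4 fell (11.8%), at adjusted p-values of 0.0167 to 0.0494. Over all 16028 features tested, 13.6% were called higher and 15.4% lower. The share of the set that rose was above that background, and the share that fell was near it. Rspo2, Wnt16, Wnt6 and Wnt10b passed the filter on low counts only with the tenotomy libraries in it, so that Rspo2 and Wnt16 were tested only because they are high there. Among the 30 genes that also pass without either group, 8 rose (26.7%) and 4 fell (13.3%), against 13.4% and 16% of 14508 such features. Libraries of the groups did not overlap in 16 genes that were higher (47.1%) and 10 that were lower (29.4%), against 31.9% and 31.8% of all features. The median log2 fold change of those 30 genes was 0.03, against -0.01 over the same kind of features. It was 0.28 over the 34 tested, a value the filter helped to set.

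These calls, and those of all other features, were lost when any contralateral or tenotomy library was left out of the 7-library fit. A fit of the 5 tenotomy and contralateral libraries alone called all 14 and 5 more, 13 higher (38.2%) and 6 lower (17.6%), against 22.1% and 24.1% of 16014 features. Leaving out any 1 library from that fit left 10 to 13 higher and 5 to 7 lower, against 14.7% to 23.3% and 17.4% to 25.2% of all features. All of the 14 kept their direction in every alternative tried. They were picked from these same libraries, with groups that do not overlap, so the kept direction is no separate support.

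**Figure D1:**
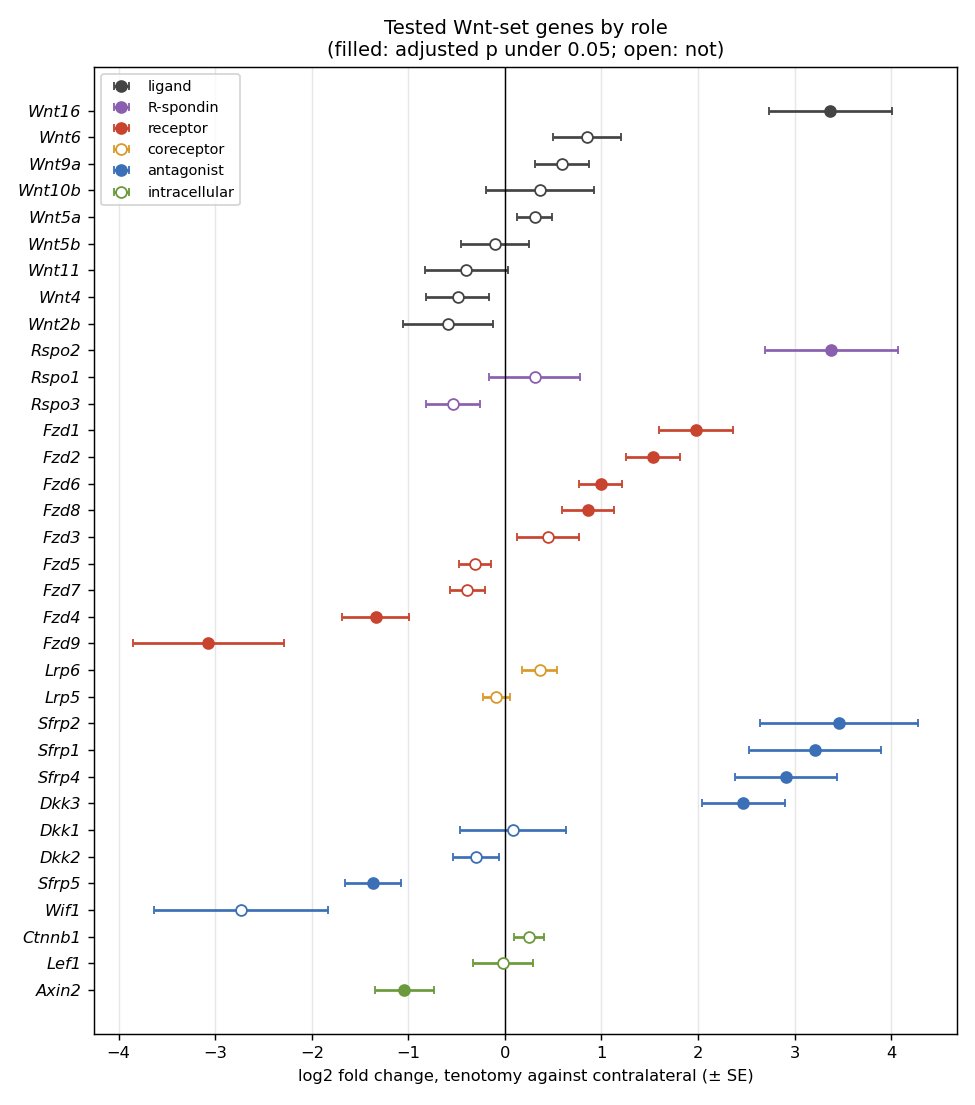
Log2 fold change of tenotomy against contralateral tendon (x axis, with the standard error as bars) for the 34 Wnt genes tested, ordered by role; filled points passed the adjusted p threshold of 0.05. The antagonists spread widest, from Sfrp2 at 3.46 to Wif1 at -2.73, and the co-receptors lie close to 0.

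Of the 9 ligands tested, 1 rose and 0 fell in the 7-library edgeR test, against 13.6% and 15.4% of all features. Wnt6 was the only other ligand with an unadjusted p under 0.05 in that test. Wnt16, a ligand known for its part in bone mass and joint tissue (chr6:22288227-22298522, plus strand), was at 0.0470, 0.0872 and 0.0618 CPM in contralateral, 0.660 and 0.736 in tenotomy, and 0.472 and 0.103 in uninjured libraries. Both tenotomy values lay above all others. The 2 tenotomy libraries held 46 Wnt16 counts and the 3 contralateral libraries 6, a ratio of 10.8 per unit depth with an exact 95% interval of 4.61 to 31.0 for counting error alone. The edgeR log2 fold change was 3.37 ± 0.64 (SE), with a Benjamini-Hochberg adjusted p of 0.0167, in a gene that passed the filter only through the tenotomy libraries.

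The other ligands tested did not pass in the 7-library fit. Wnt5a, which acts mainly outside the β-catenin branch, was at 1.62 to 2.24 CPM in contralateral and at 2.34 and 2.37 in tenotomy libraries (log2 difference 0.31). Wnt9a, a ligand of joint formation, was at 1.34 to 1.65 CPM in contralateral and 2.30 and 2.31 in tenotomy, without overlap. It missed the threshold in the 7-library edgeR fit (adjusted p 0.142), and passed in the 5-library fit (0.0128) and without either uninjured library (0.0118 each), with a range of 0.0106 to 0.625 over its alternatives. Wnt4 differed by -0.49, Wnt2b by -0.59, Wnt11 by -0.40, Wnt5b by -0.10, Wnt10b by 0.36 and Wnt6 by 0.85 on the log2 scale, none past the threshold. Summed over all 19 ligands, TPM was 0.430, 0.438 and 0.280 in contralateral, 0.428 and 0.454 in tenotomy, and 0.487 and 0.445 in uninjured libraries. In these sums tenotomy overlapped both other groups, and the uninjured values lay above the contralateral ones, by little (0.445 against 0.438). TPM lack the scaling between libraries that CPM have, so this order may not hold in CPM. Wnt5a was at 0.156 TPM in uninjured replicate 1 and 0.0453 in tenotomy replicate 1, though its CPM there were 2.55 and 2.37.

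R-spondins are secreted amplifiers that act through Lgr4, Lgr5 and Lgr6. Rspo2 (chr15:43020794-43170826, minus strand), which is needed for limb outgrowth, had 3, 3 and 0 counts in contralateral, 26 and 21 in tenotomy, and 8 and 3 in uninjured libraries. The tenotomy libraries were higher than all others. Their 47 counts against 6 gave a ratio of 11.0 per unit depth (exact 95% interval 4.71 to 31.6, counting error only), and edgeR gave a log2 fold change of 3.38 ± 0.69 (SE) with an adjusted p of 0.0167. Like Wnt16, Rspo2 passed the filter only through the tenotomy libraries. Rspo1 was at 0.216 to 0.450 CPM in contralateral and 0.326 and 0.401 in tenotomy, and Rspo3 at 0.675 to 0.825 against 0.571 and 0.467, neither past the threshold.

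Of the 9 Frizzled receptors tested, 4 rose, 2 fell and 3 did not pass the edgeR test. Of all features, 13.6% rose and 15.4% fell in that test. Fzd1 (chr5:4753839-4758035, minus strand) was at 3.75, 3.22 and 2.35 CPM in contralateral, 12.9 and 11.5 in tenotomy, and 10.9 and 4.09 in uninjured libraries. Fzd2, a close relative of Fzd1 and Fzd7 (chr11:102604396-102608058, plus strand), was at 0.937, 1.11 and 1.39 CPM, then 3.13 and 3.53, then 3.41 and 1.89. For both, the tenotomy libraries lay clear of the contralateral ones. The edgeR log2 fold changes were 1.98 ± 0.38 for Fzd1 and 1.53 ± 0.28 for Fzd2 (SE), each with an adjusted p of 0.0167.

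Fzd6, a receptor best known from planar polarity of skin and hair, rose from 1.55 to 1.83 CPM in contralateral libraries to 3.49 and 3.17 in tenotomy, with 3.16 and 1.95 in uninjured. Fzd8 rose from 0.866 to 0.911 CPM to 1.82 and 1.40, with 1.98 and 1.14 in uninjured. Fzd6 changed by 0.99 ± 0.22 (SE, adjusted p 0.0181 in edgeR) and Fzd8 by 0.86 ± 0.27 (SE, adjusted p 0.0494). The call of Fzd8 was the nearest to the threshold, and it was lost with DESeq2 (adjusted p 0.113), limma-voom, length-scaled TPM, protein-coding transcripts alone and a test against a 1.5-fold change (range over all alternatives 0.00526 to 0.285).

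Fzd4, the receptor through which Norrin acts on blood vessels together with Lrp5 and Tspan12 (chr7:89404355-89413134, plus strand), was at 17.3, 17.4 and 17.0 CPM in contralateral, 6.64 and 7.0 in tenotomy, and 6.90 and 17.6 in uninjured libraries. Fzd9 (chr5:135248938-135251230, minus strand), known for a role in osteoblasts, was at 1.54, 2.67 and 2.97 CPM, then 0.326 and 0.233, then 0.252 and 2.03. Both fell without overlap, with edgeR log2 fold changes of -1.34 ± 0.35 for Fzd4 (SE, adjusted p 0.0286) and -3.07 ± 0.78 for Fzd9 (SE, adjusted p 0.0251). Endothelial markers summed to 52.2 to 63.0 CPM in contralateral and 57.9 and 46.1 in tenotomy. Of these markers 1 of 6 was lower, against 15.4% of all features. Fzd7, at 6.18 to 7.03 CPM in contralateral and 5.17 and 4.87 in tenotomy, missed the threshold in the 7-library edgeR fit (adjusted p 0.136). It passed in the 5-library fit (0.0122) and without uninjured replicate 1 (0.0166) or 2 (0.0156), with a range of 0.00656 to 1 over its alternatives. Fzd3 was at 0.680 to 0.750 CPM in contralateral and 0.761 and 1.23 in tenotomy (log2 difference 0.45), and Fzd5 at 1.67 to 2.01 against 1.53 and 1.52 (-0.31), neither past the threshold.

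The make-up of the receptors differed between tenotomy and contralateral tendon while their summed level overlapped. Summed Frizzled TPM was 1.47, 1.59 and 1.21 in contralateral, 1.23 and 1.32 in tenotomy, and 1.41 and 1.51 in uninjured libraries. In these sums, without the scaling between libraries that CPM have, the tenotomy values lay within the contralateral range and below the uninjured ones. Fzd4 made up 48.4% to 51.8% of that sum in contralateral libraries and 20.3% and 22.4% in tenotomy. Fzd1 made up 5.91% to 9.85% and then 34.8% and 32.2%. In the library labelled uninjured replicate 1 the shares of Fzd4 and Fzd1 were 22.1% and 30.8%, and in uninjured replicate 2 they were 48.0% and 9.79%.

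**Figure D2:**
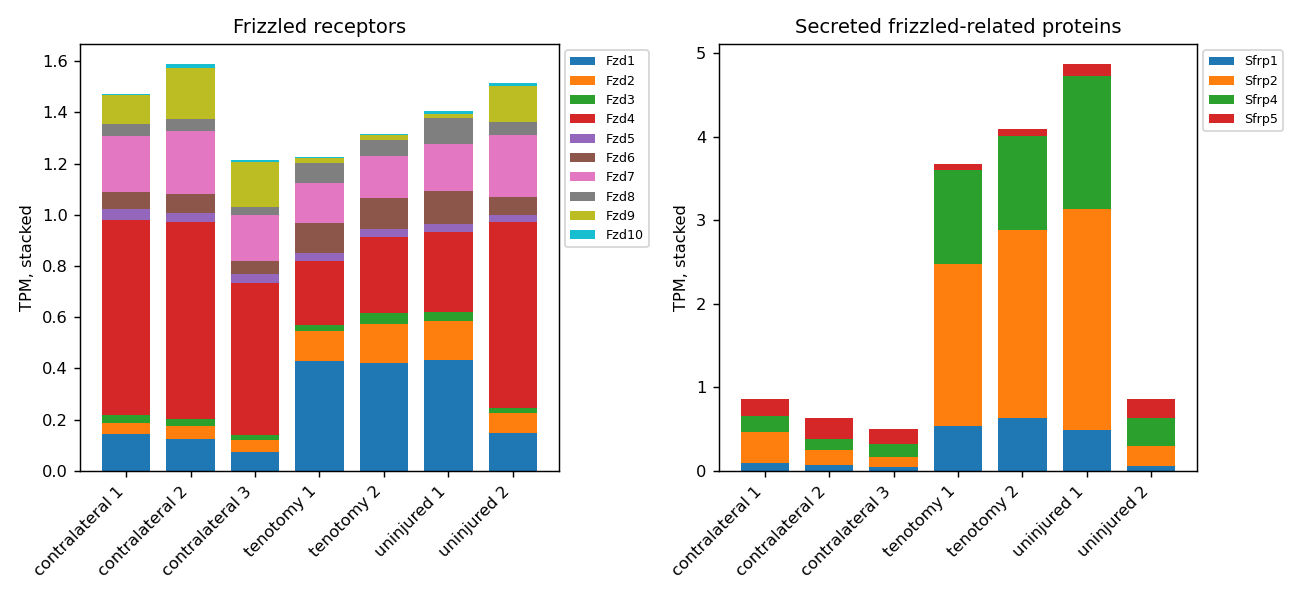
Deposited TPM summed per gene and stacked (y axis) for the Frizzled receptors (left) and the Sfrp genes of the set (right), without Frzb. The x axis gives the 7 libraries. The Frizzled sum stays between 1.21 and 1.59 while Fzd1 takes the place of Fzd4 at the tenotomy site; the Sfrp sum lies between 0.498 and 0.862 in contralateral and at 3.67 and 4.10 in tenotomy libraries.

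The co-receptors did not pass the test. Lrp5 (chr19:3584828-3686564, minus strand), whose activity raises bone mass, was at 7.41, 8.21 and 6.78 CPM in contralateral, 6.98 and 7.05 in tenotomy, and 6.22 and 6.58 in uninjured libraries, a log2 difference of -0.09 ± 0.14 (SE) between the first 2 groups. Lrp6 (chr6:134446476-134566965, minus strand) was at 24.3, 26.0 and 22.8 CPM, then 29.1 and 33.6, then 29.0 and 22.5. The tenotomy values of Lrp6 lay above all contralateral ones, with a log2 difference of 0.36 ± 0.18 (SE) and an edgeR adjusted p of 0.163 in the 7-library fit and 0.0132 in the 5-library fit (range over the alternatives 0.00887 to 1).

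Among the antagonists 4 of 8 tested rose and 1 fell, against 13.6% and 15.4% of all features. The median log2 fold change was 1.28, the highest of the 6 roles, but no antagonist lay near it. The 4 that rose were at 2.47 or above and the others at 0.08 or below. Sfrp2, a Wnt-binding protein of fibroblasts (chr3:83766321-83774316, plus strand; its promoter window is printed above), was at 3.19, 2.05 and 1.85 CPM in contralateral, 25.2 and 26.7 in tenotomy, and 29.5 and 2.44 in uninjured libraries. Sfrp1 (chr8:23411502-23449632, plus strand) was at 2.41, 1.82 and 1.5 CPM, then 17.1 and 17.9, then 13.0 and 1.64. Sfrp4, an antagonist with a part in cortical bone (chr13:19623104-19632994, plus strand), was at 1.80, 1.31 and 1.89 CPM, then 13.2 and 11.8, then 15.6 and 3.58. In each, the tenotomy libraries lay far above all 3 contralateral libraries. The group means of Sfrp2 were 25.9 ± 1.01 CPM (SD, n = 2) at the cut tendon and 2.36 ± 0.72 CPM (SD, n = 3) on the contralateral side. The edgeR log2 fold changes were 3.46 ± 0.82 for Sfrp2, 3.21 ± 0.68 for Sfrp1 and 2.91 ± 0.53 for Sfrp4 (SE), at adjusted p-values of 0.0212, 0.0173 and 0.0167.

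Sfrp5, the fourth gene of the set with an Sfrp symbol and one known from adipose tissue (chr19:42197971-42202252, minus strand, window printed above), went the other way. Frzb, a secreted frizzled-related protein without such a symbol, is outside the set and is given with the other regulators below. It was at 2.29, 2.76 and 2.44 CPM in contralateral, 0.870 and 1.07 in tenotomy, and 1.44 and 2.72 in uninjured libraries. Its edgeR log2 fold change was -1.37 ± 0.29 (SE), with an adjusted p of 0.0174. Adipose markers summed to 313 to 387 CPM in contralateral, 111 and 109 in tenotomy, and 112 and 307 in uninjured libraries. Of these markers 3 of 7 were lower at the cut tendon, against 15.4% of all features. Their part in the Sfrp5 change was not tested. As a share of summed Sfrp TPM, Sfrp5 went from 24.5% to 40.3% in contralateral libraries to 1.85% and 2.27% in tenotomy.

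Dkk3, a divergent Dickkopf that does not block the co-receptors as Dkk1 does (chr7:112116017-112159057, minus strand), was at 3.22, 2.76 and 2.13 CPM in contralateral, 15.1 and 14.9 in tenotomy, and 13.3 and 4.03 in uninjured libraries. Both tenotomy libraries exceeded every contralateral one, and edgeR put the rise at 2.47 ± 0.43 in log2 units (SE, adjusted p 0.0167). The classical co-receptor blockers were not called: Dkk1 was at 0.128 to 0.535 CPM in contralateral and 0.361 and 0.427 in tenotomy, and Dkk2 at 4.13 to 5.16 against 3.51 and 3.92. Wif1, a Wnt-binding inhibitor (chr10:121033960-121100650, plus strand), was at 2.89, 1.85 and 1.67 CPM, then 0.245 and 0.400, then 0.359 and 3.65. Its log2 difference of -2.73 ± 0.90 (SE) missed the threshold in the 7-library edgeR fit (adjusted p 0.0559) and passed it in the 5-library fit (4.84e-05), with DESeq2 (0.00470) and with no filter on low counts (0.00573), in a range over its alternatives of 1.16e-05 to 0.261.

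**Figure D3:**
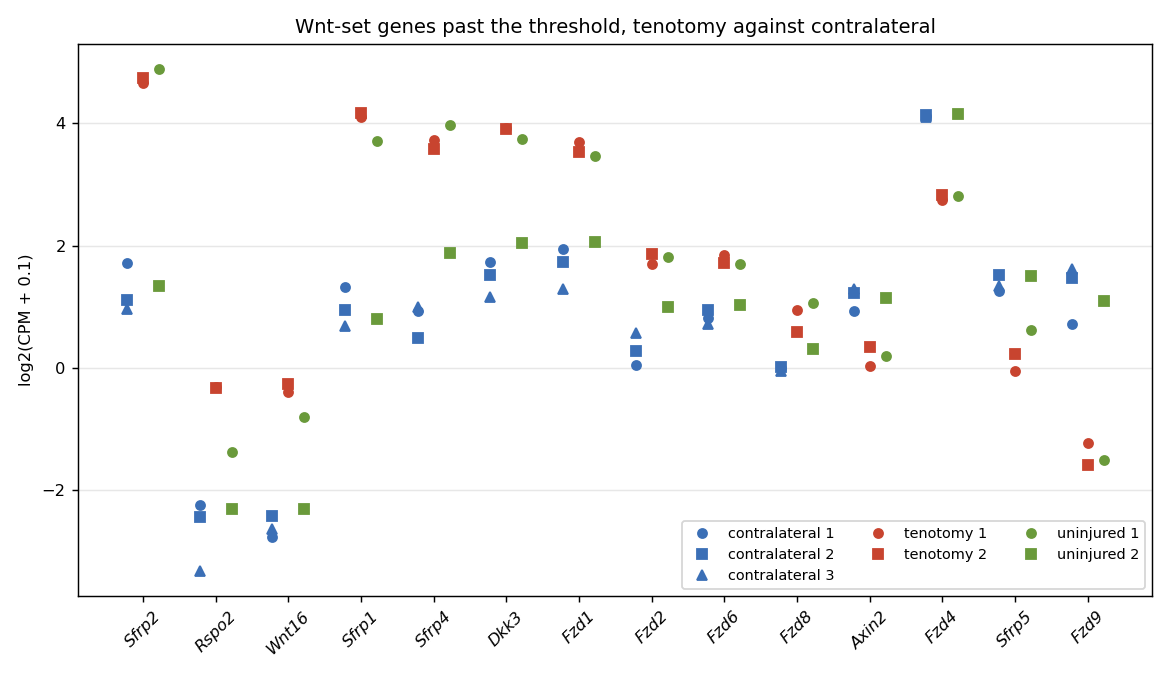
Level in each library as log2(CPM + 0.1) (y axis) of the 14 Wnt genes past the threshold between tenotomy and contralateral tendon (x axis, by log2 fold change from highest to lowest); colour gives the group and shape the replicate. Tenotomy and contralateral points do not overlap in any of the 14 genes, and the uninjured points lie apart from each other.

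Inside the cell, Ctnnb1, which encodes β-catenin (chr9:120929216-120960507, plus strand), was at 28.3, 29.5 and 28.4 CPM in contralateral, 34.0 and 34.2 in tenotomy, and 34.7 and 29.4 in uninjured libraries. The log2 difference was 0.25 ± 0.16 (SE), with an edgeR adjusted p of 0.266 in the 7-library fit and 0.0376 in the 5-library fit (range over the alternatives 0.0302 to 1). Lef1, a nuclear partner of β-catenin (chr3:131110471-131224356, plus strand), was at 0.386, 0.455 and 0.529 CPM, then 0.492 and 0.401, then 0.502 and 0.412, with the groups overlapping (log2 difference -0.02 ± 0.31, SE). RNA levels do not measure the stability of the β-catenin protein.

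Axin2, the negative-feedback target of β-catenin (chr11:108920349-108950783, plus strand; window printed above), was at 1.80, 2.25 and 2.35 CPM in contralateral, 0.925 and 1.17 in tenotomy, and 1.04 and 2.10 in uninjured libraries. The groups did not overlap, and edgeR gave a log2 fold change of -1.04 ± 0.31 (SE) with an adjusted p of 0.0418. The call was lost with DESeq2 (adjusted p 0.0563), with length-scaled TPM and in a test against a 1.5-fold change (range over all alternatives 0.000398 to 0.235).

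Other genes of the pathway were read from lists that share no gene with the set. In the 7-library edgeR fit used for all of these lists, 13.6% of all features were called higher and 15.4% lower. In the list of other targets and feedback genes, 7 of 13 tested rose and 1 fell (median log2 fold change 1.11). The largest rises were Ccn4, a matricellular protein, by 3.21, Cd44, the hyaluronan receptor, by 1.89 and Ccn5 by 1.83, while Tnfrsf19 fell by 3.22. Ccn4 was at 0.526 to 0.825 CPM in contralateral and 6.5 and 6.7 in tenotomy libraries. Axin2 and Tnfrsf19 therefore moved against most of the list, and many genes of the list also answer to other signals.

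Among secretion and extracellular regulators, 7 of 14 rose and 1 fell (median 0.65). Tpbg rose by 2.37, Igfbp4 by 2.11 and Sostdc1, an inhibitor of Wnt and BMP signals, by 1.46, and Kremen1, a Dkk receptor, fell by 0.53. Frzb, the secreted frizzled-related protein outside the set, rose by 1.21. It was at 0.866 to 1.05 CPM in contralateral and 2.09 and 2.4 in tenotomy libraries. Among co-receptors and genes of receptor turnover, 6 of 13 rose and 2 fell (median 0.87). Ptk7 rose by 2.87 and Ror2, a Wnt5a receptor, by 2.73, and the R-spondin receptor Lgr5 rose by 1.94. Musk, a kinase of the neuromuscular junction, fell by 2.31, and Tspan12, the partner of Fzd4, by 1.09. Musk stood at 5.25 to 8.5 CPM in contralateral and 1.41 and 1.43 in tenotomy libraries.

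The lists inside the cell held calls in both directions, to be read beside the 13.6% higher and 15.4% lower over all features. Of 20 genes of the destruction complex and β-catenin handling, 1 rose (Axin1, by 0.57) and 2 fell (Tnks2 and Btrc, each by 0.65). Of 14 nuclear factors, 1 rose (Tle3, by 0.70) and 3 fell (Tle4 by 1.37, Cdc73 by 0.68 and Tle1 by 0.66). In the planar polarity and calcium branch, 5 of 20 rose and 3 fell. Nfatc4 rose by 1.59 and the polarity genes Vangl1 and Vangl2 by 1.17 and 0.76, while Camk2b, Camk2a and Camk2g fell by 3.27, 2.34 and 1.46. The 5-library fit called 2 higher and 8 lower in the destruction complex list and 9 higher and 5 lower in the polarity and calcium list, both of 20, against 22.1% and 24.1% of all features. The values of single genes are log2 fold changes of the 7-library edgeR fit, at adjusted p-values of 0.0167 to 0.0490.

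Markers of several cell types moved in the same comparison, in which 13.6% of all features were called higher and 15.4% lower. All 20 skeletal muscle markers fell, beside the adipose and endothelial values given above. Of 13 fibroblast and tendon markers 8 rose (1210 to 1620 CPM against 7130 and 7140), of 10 macrophage and leukocyte markers 9 rose (29.0 to 35.4 against 126 and 130), and of 8 cartilage markers 7 rose (13.5 to 19.1 against 381 and 381). Proliferation markers rose in 4 of 6. Of the bone list only 4 of 8 markers were tested, 1 higher and 2 lower, and Mepe was at 0 in all libraries. In bulk tissue fewer cells of a type and less RNA per cell cannot be told apart, and the part of these shifts in the changes of the Wnt genes was not tested. With the muscle, erythroid and mitochondrial genes removed before scaling, the same counts of 10 higher and 4 lower were found, against 13.7% and 14.9% of all features. That setting changes which features are scaled and tested and adjusts no Wnt gene for muscle content.

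Against uninjured tendon, neither the tenotomy site nor the contralateral limb showed a Wnt gene past the threshold. For tenotomy against uninjured tendon edgeR called 0 of 34 genes (smallest adjusted p 0.450) and 0% of all features, and limma-voom also called 0 (0% of all features). DESeq2 gave an adjusted p to only 10 of the 34 and called 0 of them. It called 140 of the 3288 features given an adjusted p, or 0.873% of all 16028 tested. At an unadjusted p under 0.05 in the edgeR fit, 1 gene was higher (Rspo2, log2 difference 1.84) and 2 lower (Sfrp5, -1.11, and Wif1, -2.65), against 3.27% and 7.59% of all features. For contralateral against uninjured tendon edgeR called 0 of 34 (smallest adjusted p 0.215) and 0% of all features, and limma-voom called 0 (0% of all features). DESeq2 gave an adjusted p to only 11 of the 34 and called 3 of them lower (Dkk3, Sfrp2 and Sfrp4). It called 136 of the 5463 features given an adjusted p lower, or 0.849% of all 16028 tested. In the edgeR fit 2 genes were higher at an unadjusted p under 0.05 (Wnt4, 1.12, and Fzd5, 0.49) and 10 lower, with Sfrp2 at -2.76 and Sfrp4 at -2.53, against 8.72% and 10.5% of all features. These comparisons and the one above share libraries, so their values are not independent.

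The 2 uninjured libraries lay far apart in these genes. In each of the 14 genes called above, the library labelled uninjured replicate 1 lay nearer the tenotomy mean and uninjured replicate 2 nearer the contralateral mean. The same held widely outside the set: of all features called in that comparison, 92.0% had uninjured replicate 1 nearer tenotomy and 13.4% had uninjured replicate 2 nearer tenotomy. With the contralateral mean at 0% and the tenotomy mean at 100%, uninjured replicate 1 stood at 55.1% to 138% (median 95.8%) and uninjured replicate 2 at -9.61% to 46.9% (median 14.4%). Sfrp2, at 29.5 CPM in replicate 1 and 2.44 in replicate 2, shows the gap. Cartilage markers summed to 180 CPM in replicate 1 and 27.9 in replicate 2, against 381 in each tenotomy library. Whether replicate 1 carries the right label was not tested, so every value of the uninjured group rests on a label in doubt.

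**Figure D4:**
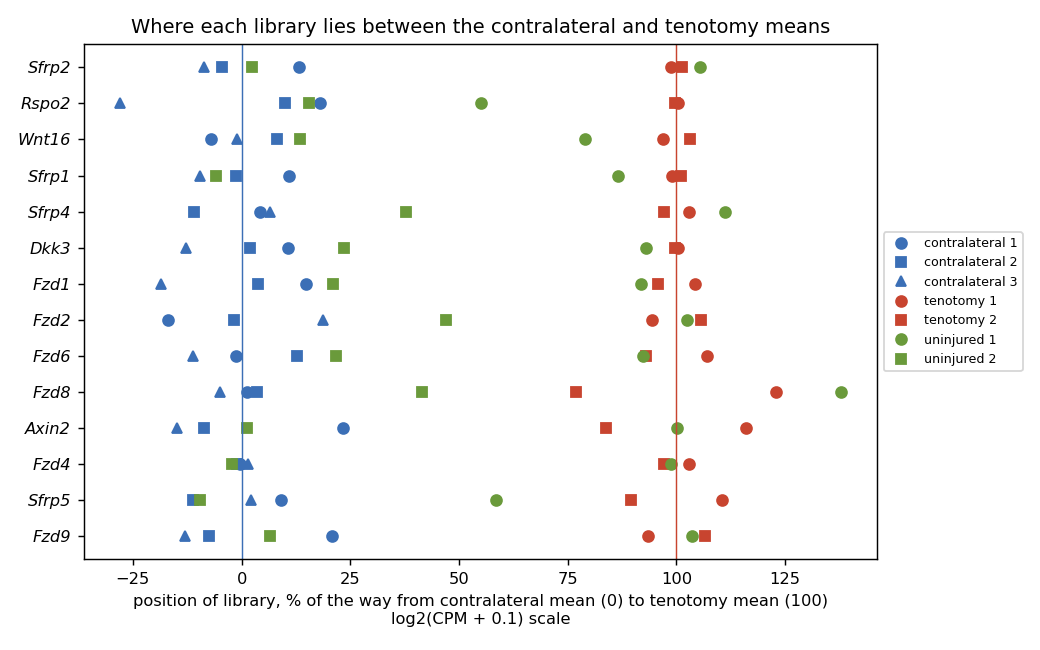
Position of each library on the way from the contralateral mean (0%) to the tenotomy mean (100%) on the log2(CPM + 0.1) scale (x axis) for the 14 Wnt genes past the threshold (y axis). Uninjured 1 lies at 55.1% to 138% and uninjured 2 at -9.61% to 46.9%.

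Leaving out an uninjured library decided these comparisons. Without uninjured replicate 1, edgeR called 11 Wnt genes higher and 7 lower in tenotomy against the remaining uninjured library, with 11.4% and 13.7% of all features called, and 13 of the 18 were among the 14 above. Sfrp1 and Sfrp2 each differed by 3.41, Dkk3 by 1.90 and Fzd4 by -1.37 on the log2 scale in that fit. Without uninjured replicate 2, the same comparison gave 0 Wnt genes, against 0.083% of all features, both at an adjusted p under 0.05. In each of these fits the lone uninjured library is assumed to vary like the other groups.

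Contralateral against uninjured tendon went the opposite way. Without uninjured replicate 2, edgeR called 7 Wnt genes higher in contralateral and 9 lower, with 16.9% and 15% of all features, and 13 of the 16 were among the 14. Sfrp2 differed by -3.66 and Sfrp4 by -3.24 on the log2 scale. Without uninjured replicate 1, 1 gene was called, Sfrp4, lower in contralateral (adjusted p 0.0439), with 0.617% of all features. Which Wnt genes differ from uninjured tendon therefore turned on which of the uninjured libraries was used.

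Numbers in the sample titles fall in 3 ranges that no label calls batches. The lowest range holds the contralateral libraries and tenotomy replicate 1, the next holds tenotomy replicate 2 and the library labelled uninjured replicate 1, and the highest holds uninjured replicate 2 alone. Within the lowest range, where 1 tenotomy library can be set beside 3 contralateral libraries, Sfrp2 was at 25.2 against 1.85 to 3.19 CPM and Fzd4 at 6.64 against 17.0 to 17.4. A fit with the range as a covariate rests on that same contrast. Tenotomy replicate 2 and the uninjured libraries are used up by the range and uninjured terms, and only the contralateral libraries measure spread. The counts from that fit are therefore no separate test of a batch effect. With the range as a covariate, edgeR called 10 Wnt genes higher and 5 lower, against 16.6% and 18.2% of all features.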

How the data were processed

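RNA was sequenced from 7 hindlimb tendon libraries, grouped by the condition label, with replicates numbered in accession order. Libraries were made with a TruSeq kit from column-purified Trizol extracts, per the labels' protocols. The submitters' processing notes name FastQC 0.11.4, kallisto with no version, and the build GRCh38, a human assembly, although the tables list mouse transcript IDs; the annotation is not given in the sources used here. Per the file headers, each table deposited by the authors gives an estimated count, TPM, length and effective length (the last not used except as an alternative) for 103639 transcripts. Deposited estimated counts are not normalized, and deposited TPM are scaled by effective length.

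Of these transcripts, 101510 were matched to GENCODE M21 (GRCm38), whose gene positions are printed, and 2129 were kept as single features. Estimated counts were summed per gene and rounded. Features were filtered with filterByExpr (minimum count 10), scaled by TMM and tested with edgeR 4.0.16 (R 4.3.3) in 1 fit of 3 group means. P-values were adjusted by Benjamini-Hochberg over all features, threshold 0.05. CPM are counts scaled to a common TMM-adjusted library total, fold changes are log2, and an SE is the log2 fold change over the square root of F. Depth sets the precision: the smallest library outside its 5 largest features holds 4934057 counts. Reads shared between near-identical genes were divided by the authors' tool and cannot be checked here. The scripts were tested on simulated data. Alternatives (other scalings, DESeq2 1.42.0, limma 3.58.1, filters, libraries left out) are described in the closing section.

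The Wnt genes, the other gene lists and the marker lists were chosen with earlier results of these data known. Every gene of the set was accounted for. Full values were given for those past the threshold between tenotomy and contralateral tendon and for Ctnnb1, Lrp5, Lrp6, Axin2 and Lef1. From each other pathway list, up to 3 of the largest rises and 3 of the largest falls past the threshold were named. Wif1, Frzb and the tendon and muscle values were added after their values were seen. Markers of Schwann cells (2 of 6 higher), erythroid cells (2 of 5 higher) and skin epithelium were also read, against 13.6% of all features higher. Skin epithelium had 0 of 1 tested called, summing to 0.187 to 1.37 CPM, with Krt1 at 0.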

Additional observations from a re-analysis of the deposited data

How the results depend on the processing

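Between tenotomy and contralateral tendon, 10 Wnt genes were called higher and 4 lower (13.6% and 15.4% of all features). A test against a 1.5-fold change left 8 higher and 0 lower (4.12% and 5.64% of all features), though 4 were lower at the usual threshold. Leaving out each library in turn gave 0 to 13 higher and 0 to 6 lower, the 0 arising without any contralateral or tenotomy library. The fit of the 5 libraries without contralateral replicate 3, an alternative chosen after seeing the data, gave 7 lower (23.4% of all features). Keeping only features that pass the filter without either group, also chosen after seeing the data, gave 8 higher and 4 lower (13.4% and 16% of such features). Other scalings, limma-voom, DESeq2, no filter, length-scaled TPM, counts on protein-coding transcripts and the other planned settings gave 9 to 13 higher and 3 to 6 lower (8.12% to 22.1% and 9.13% to 24.1% of all features). Upper-quartile scaling moved the median of all genes by 0.113 on the log2 scale. Fzd9 was also not called with limma-voom.

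Against uninjured tendon, leaving out each library gave 0 to 11 Wnt genes higher and 0 to 7 lower in tenotomy, and 0 to 7 higher and 0 to 9 lower in contralateral. For contralateral, DESeq2 called 3 lower (0.849% of all features) and no filter on low counts 4 lower (0.835%). Of 322 values of the 14 genes called between tenotomy and contralateral tendon under the alternatives, 322 kept their sign. Genes picked with groups that do not overlap could hardly do otherwise. No paired analysis was possible because replicate numbers come from accession order and no label pairs the libraries. Groups of 2 and 3 libraries, and few counts for Wnt16, Rspo2 and the ligands removed by the filter, limit the precision.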

Other observations

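For most Wnt genes nearly all counts fell on transcripts annotated as protein-coding, but Lrp5 had 63.6% of its counts there, Wnt11 58.0% and Lef1 74.1%. Counting protein-coding transcripts alone gave 9 Wnt genes higher and 4 lower at the tenotomy site, against 12.6% and 14.6% of all features.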
